A study of Mus musculus with 8 samples.

Results

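Histidine, serine and glycine breakdown in the liver was followed through 10 enzyme genes, chosen by gene symbol and found as 10 rows among the 24317 genes of the deposited count table. They are the 4 enzymes that take histidine to glutamate (Hal, Uroc1, Amdhd1 and Ftcd), serine dehydratase and its relative (Sds and Sdsl), 3 subunits of the glycine cleavage system (Gldc, Amt and Gcsh) and the cytosolic enzyme that interconverts serine and glycine (Shmt1). RNA sequencing was done on whole liver of C57BL/6 mice, with 4 libraries from mice given normal chow and 4 from mice given chow with 6% NaCl for 6 weeks. No allele, transgene or drug is named for either group, and age and sex were not among the labels used here. The high-salt libraries carry titles that start with N, a letter that could stand for normal, and swapped labels would invert all directions given here.

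In liver, these routes turn amino acids into fuel, ammonia and one-carbon units. Histidine loses its ammonia and then its ring, and the last step hands a one-carbon group to folate and leaves glutamate. Serine is split to pyruvate and ammonia, and glycine is taken apart in mitochondria by a complex that also charges folate. Several of these genes are known to be highest in hepatocytes near the portal vein and to respond to glucagon and glucocorticoids, which direct amino acids toward glucose production.

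Hal and Sds had the largest fold differences of the 10 members between the diets, and both were lower on high salt. Hal was at 484 ± 43.0 CPM (read counts scaled to a common depth) on normal chow and 349.5 ± 42.4 CPM on high salt, and Sds at 148 ± 25.2 and 103 ± 19.1 CPM (mean ± SD, n = 4 per diet, as for all such values). By edgeR's quasi-likelihood test, with p-values adjusted by Benjamini-Hochberg over all 13341 tested genes, 0 of the 10 members passed the threshold of 0.05 in either direction. Over all tested genes 0.300% passed, and 0.150% passed as lower on high salt. DESeq2 called 2 members, Hal and Sds, both lower, against 1.83% of all genes, and limma-voom called 0. The same 2 genes have an adjusted p below 0.05 in the authors' deposited table, against 1.41% of the genes to which it gives an adjusted p. That table's own mark of significance reads no for both. Its log2 fold changes for Hal and Sds, -0.4749 and -0.5251, equal those of DESeq2 as rounded here. It is therefore not a separate line of evidence.

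At an unadjusted p below 0.05, 4 of 10 members (Hal, Sds, Shmt1 and Uroc1) were lower and 0 were higher, where 10.9% of all tested genes were below that p and 5.60% were below it and lower. The log2 fold change was below 0 in 8 of 10 members, against 48.7% of all genes, and the members' median was -0.14, against 0.006 over all genes. The CPM values of the diets did not overlap in 1 member, Hal, against 6.36% of all genes. The members were chosen with earlier results of these data known, so their counts and median are descriptions. The bulk counts cannot tell fewer cells of a type from less RNA in each cell.

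**Figure D1:**
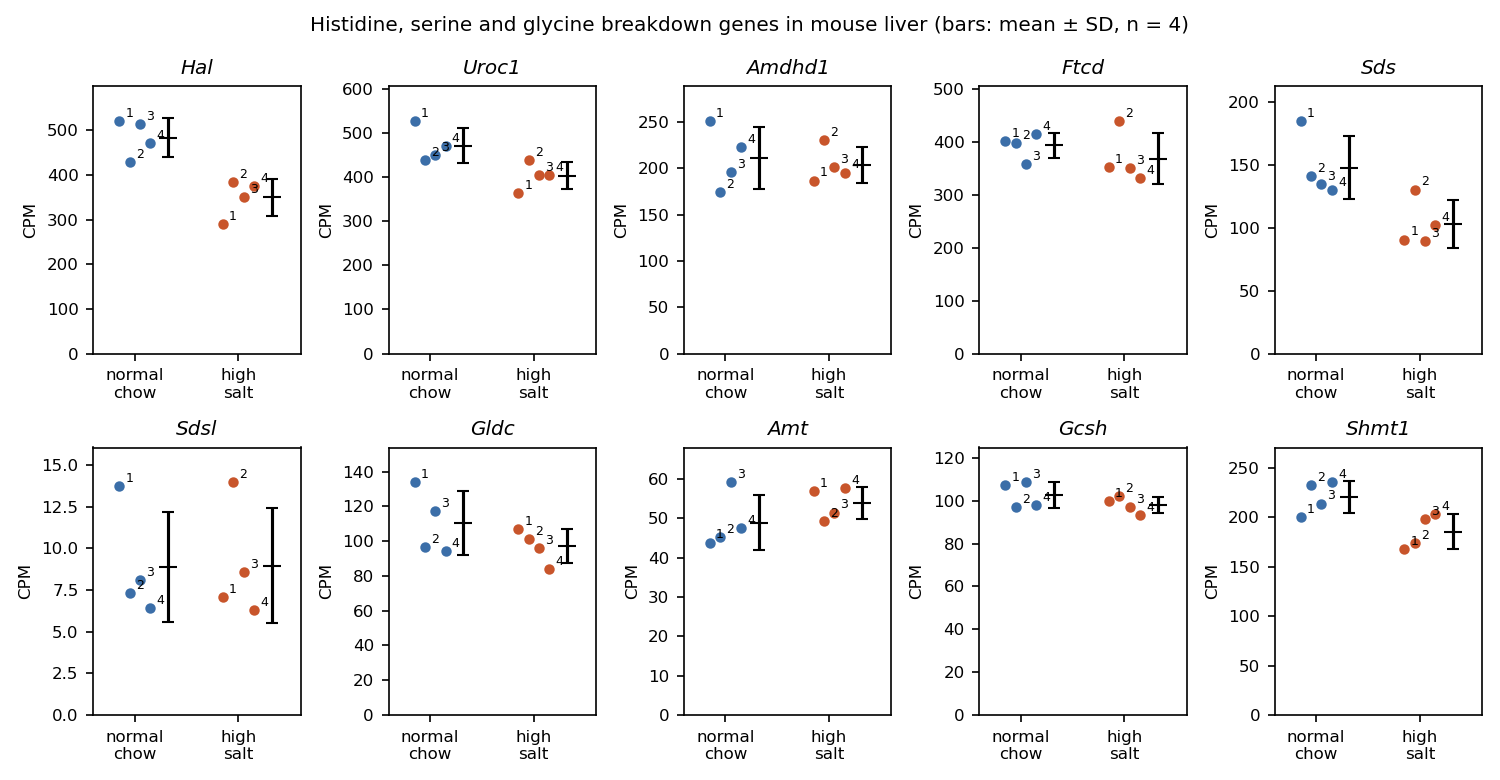
CPM of each member in each library on a linear axis from 0, with the library number beside each point and mean ± SD (n = 4) at the right of each diet. The 4 high-salt points of Hal, at 289 to 383 CPM, all lie under the 4 normal-chow points, at 429 to 521 CPM, and the points of the other members overlap between diets.

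Totals ran from 16620368 to 18639685 counts per library, and all 10 members passed the filter on low counts. Normal chow 2 stood apart in Cyp1a1, a target of the aryl hydrocarbon receptor, with 2019 CPM against 0.586 to 2.76 CPM in the other libraries. Normal chow 1 was the highest library of its diet in 6 of the 10 members and high salt 2 in 7 of the 10. Hepatocyte markers were abundant in every library (summed 128676 to 146813 CPM on normal chow and 134983 to 140899 CPM on high salt), and 1 of the 8, Tat, was called lower by edgeR and by DESeq2. Of markers of other cells, lymphocyte genes summed to 7.53 to 13.8 CPM on normal chow and 9.78 to 68.1 CPM on high salt, with the highest value in high salt 2 and 2 of 6 tested markers higher at an unadjusted p below 0.05, and their part in the members' values was not tested. Summed levels overlapped between diets for cholangiocytes (28.5 to 42.5 against 27.9 to 42.4 CPM), Kupffer cells (471 to 508 against 414 to 538 CPM), endothelial cells (338 to 383 against 312 to 358 CPM), stellate cells (435 to 464 against 411 to 456 CPM), neutrophils (3.36 to 4.46 against 3.73 to 5.14 CPM), red cells (109 to 173 against 91.8 to 135 CPM) and pancreas (9.97 to 22.4 against 12.8 to 17.2 CPM). Of the 8 Kupffer cell markers, DESeq2 called 1 higher and edgeR called 0, and 6 had a log2 fold change below 0. Neither method called a marker of the other non-hepatocyte lists. Markers with 0 counts in at least 1 library included Cftr, Retnlg, Mpo, Cpa1, Pnlip, Prss2, Ctrb1 and Amy2a5.

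The histidine route begins with Hal, histidine ammonia-lyase, which removes the ammonia and leaves urocanate. Hal lies on chromosome 10 from 93488768 to 93519304 on the forward strand (GRCm38, as in the deposited table), and Amdhd1 lies 4033 bases further on the reverse strand, from 93523338 to 93540033, so that their 3′ ends face each other. Ftcd is on the same chromosome from 76575648 to 76590338, and Uroc1 is on chromosome 6 from 90333284 to 90364551. All 4 are protein-coding genes, with 21, 9, 14 and 20 separate exon blocks in GENCODE M21 for Hal, Amdhd1, Ftcd and Uroc1.

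The sequences around the start sites of these 4 genes are shown because the genes serve a single route and had different values on high salt. They were taken from RefSeq (GRCm38.p6), run from 250 bases before to 50 bases after the start of each gene, and are written 5′ to 3′ on the strand of the gene. Capitals mark a match, on either strand, to any of the motifs searched, which are spelled out after the sequences. The windows are chr10:93488518-93488817 forward for Hal, chr6:90333039-90333338 forward for Uroc1, chr10:93539984-93540283 reverse for Amdhd1 and chr10:76575398-76575697 forward for Ftcd.
Hal: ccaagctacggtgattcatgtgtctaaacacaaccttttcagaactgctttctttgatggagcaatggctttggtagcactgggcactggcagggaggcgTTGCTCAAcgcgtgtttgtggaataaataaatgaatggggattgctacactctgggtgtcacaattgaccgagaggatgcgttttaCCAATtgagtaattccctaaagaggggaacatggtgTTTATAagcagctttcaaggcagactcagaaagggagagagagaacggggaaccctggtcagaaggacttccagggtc
Uroc1: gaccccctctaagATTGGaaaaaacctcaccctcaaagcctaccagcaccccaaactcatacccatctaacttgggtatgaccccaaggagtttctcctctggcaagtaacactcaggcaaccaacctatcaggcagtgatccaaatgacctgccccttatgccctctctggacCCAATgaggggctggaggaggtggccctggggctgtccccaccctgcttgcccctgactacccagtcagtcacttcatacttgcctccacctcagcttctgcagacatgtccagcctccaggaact
Amdhd1: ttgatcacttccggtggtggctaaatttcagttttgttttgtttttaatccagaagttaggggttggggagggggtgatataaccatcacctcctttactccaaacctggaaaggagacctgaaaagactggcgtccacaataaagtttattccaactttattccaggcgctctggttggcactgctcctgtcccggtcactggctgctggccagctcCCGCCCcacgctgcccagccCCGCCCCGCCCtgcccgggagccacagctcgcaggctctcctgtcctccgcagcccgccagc
Ftcd: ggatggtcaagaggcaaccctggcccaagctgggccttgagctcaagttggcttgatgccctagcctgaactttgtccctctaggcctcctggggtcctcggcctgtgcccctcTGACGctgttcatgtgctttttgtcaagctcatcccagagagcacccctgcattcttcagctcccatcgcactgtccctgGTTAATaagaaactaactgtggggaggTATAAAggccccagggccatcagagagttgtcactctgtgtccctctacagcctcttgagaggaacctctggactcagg

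The letters searched, on both strands, were the cAMP response element TGACGTCA (in 1.79% of the 32851 RefSeq promoter windows of that length) and its core TGACG (20.8%), the glucocorticoid response core AGAACA (19.0%), the C/EBP site TTNNGCAA (10.8%), the HNF4 site CAAAGTCCA (0.475%), the HNF1 core GTTAAT (7.10%), the FOX factor site TGTTTAC (3.65%), the TATA box TATAAA (13.6%), the CCAAT box CCAAT (37.4%) and the GC box GGGCGG (35.7%). A full cAMP response element holds its core. Of the 10 members, 8 had a window, and Sds and Sdsl did not. The Hal window held a CCAAT box from -64 to -60 and, both on the opposite strand, the C/EBP letters from -150 to -143 and the TATA letters from -28 to -23. The Ftcd window held the cAMP core from -136 to -132, the HNF1 core from -56 to -51 and the TATA letters from -29 to -24. The Uroc1 window held 2 CCAAT boxes and 0 CG pairs, and the Amdhd1 window held 3 GC boxes between -32 and -2 and 12 CG pairs, where the median over all windows is 7. CCAAT boxes were in 6 of the 8 windows, GC boxes in 5, the cAMP core in 2 (Ftcd and Shmt1), the TATA letters in 2 (Hal and Ftcd), and the C/EBP letters and the HNF1 core in 1 each. The full cAMP element, the glucocorticoid core, the HNF4 site and the FOX site were in 0 of the 8, which says only that these letters are not in these windows.

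On normal chow, Hal was at 521, 429, 514 and 470.5 CPM in libraries 1 to 4. On high salt it was at 289, 383, 351 and 375 CPM. Each high-salt library was below each normal-chow library, with the lowest value in high salt 1. The log2 fold change was -0.47 ± 0.10 (SE; 95% interval -0.69 to -0.25), an average of 0.723 times the normal-chow level, with an adjusted p = 0.0945 by edgeR, the 70th smallest p among the tested genes. DESeq2 gave -0.47 ± 0.11 (adjusted p = 0.00164), and the authors' deposited table gives -0.47 with an adjusted p of 0.00194. Left out alone, no library brought the edgeR value past the threshold (adjusted p = 0.0934 to 0.246). In these fits Hal ran from -0.53 without normal chow 2 to -0.39 without high salt 1, its lowest library. It had -0.43 without normal chow 1 and -0.52 without high salt 2.

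Uroc1, urocanate hydratase, acts on the product of Hal. It was at 527, 437.5, 449.9 and 469 CPM on normal chow and at 364, 438, 404 and 404 CPM on high salt. The diets overlapped by a single pair of libraries, since high salt 2 lay just above normal chow 2. Its log2 fold change was -0.23 ± 0.09 (95% interval -0.42 to -0.03, edgeR adjusted p = 0.375, DESeq2 adjusted p = 0.201).

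The last enzymes of the route had smaller differences. Amdhd1, imidazolonepropionase, which opens the ring, was at 251, 174, 196 and 223 CPM on normal chow and at 187, 231, 201 and 195 CPM on high salt. All high-salt libraries lay within the normal-chow range, and the log2 fold change was -0.052 ± 0.11 (95% interval -0.29 to 0.19), which became 0.011 with total-count scaling and 0.042 without normal chow 1. Ftcd, which moves the formimino group to folate and removes its ammonia, was at 402, 398, 359 and 415 CPM on normal chow. On high salt it was at 353, 440, 352 and 331 CPM, so that high salt 2 was the highest library of all and the other 3 were the lowest. Its log2 fold change was -0.09 ± 0.10 (95% interval -0.31 to 0.12, edgeR adjusted p = 0.802).

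Relative to Uroc1 and Amdhd1, Hal was lower in each high-salt library than in any normal-chow library. The ratio of Hal to Uroc1 CPM was 0.989, 0.980, 1.14 and 1.00 on normal chow and 0.796, 0.875, 0.868 and 0.927 on high salt, without overlap. The ratio of Hal to its neighbour Amdhd1 was 2.08, 2.46, 2.63 and 2.11 on normal chow and 1.55, 1.66, 1.74 and 1.92 on high salt, also without overlap. The ratio to Ftcd was 1.23 ± 0.162 and 0.955 ± 0.139, with high salt 4 inside the normal-chow range. These ratios were chosen with the values of the genes known and are given without a test.

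**Figure D2:**
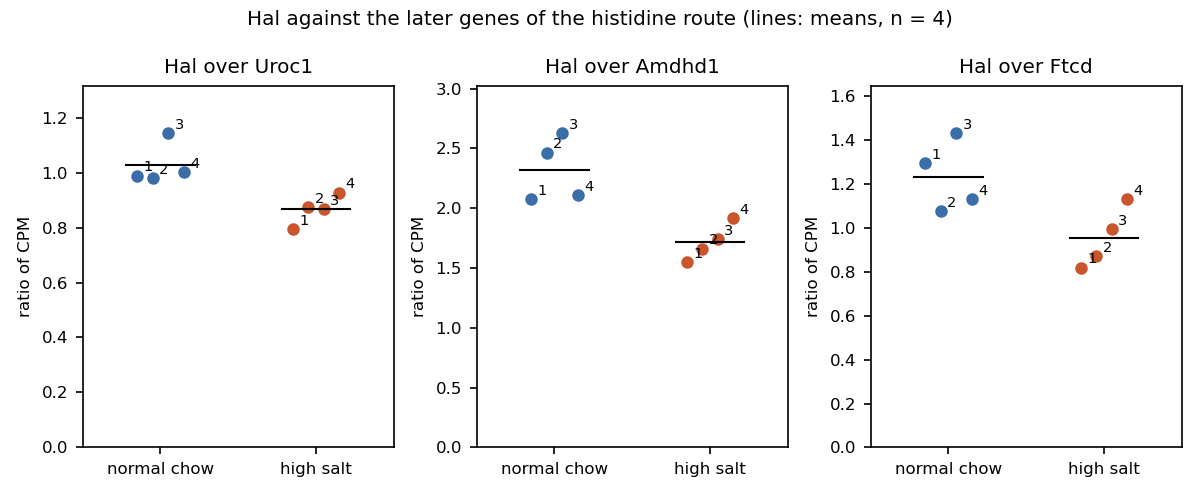
Ratio of Hal CPM to the CPM of Uroc1, Amdhd1 and Ftcd in each library, on linear axes from 0, with library numbers and the mean of each diet as a line (n = 4). The high-salt ratios to Uroc1 (0.796 to 0.927) and to Amdhd1 (1.55 to 1.92) lie below all normal-chow ratios, and those to Ftcd overlap.

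Serine breakdown rests on Sds, the dehydratase that makes pyruvate and ammonia, and Sdsl, a related protein. The genes lie head to head on chromosome 5, Sdsl from 120458186 to 120472810 on the reverse strand and Sds from 120476526 to 120483932 on the forward strand, with 3715 bases between them. Sds was at 185, 141, 135 and 129.9 CPM on normal chow and at 90.5, 130.3, 89.1 and 102 CPM on high salt. Of the high-salt libraries, 3 were below all normal-chow libraries, and high salt 2 was just above normal chow 4. Sds had a log2 fold change of -0.52 ± 0.14 (95% interval -0.83 to -0.21), or 0.698 times the normal-chow level, with an edgeR adjusted p = 0.190 and a DESeq2 adjusted p = 0.0248. The authors' deposited table gives -0.53 with an adjusted p of 0.0284.

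The value for Sds moved with the 2 libraries that were highest in their diets. It was -0.39 without normal chow 1 (adjusted p = 0.211) and -0.66 without high salt 2 (adjusted p = 0.0679). Without both, a fit chosen after the data were seen, it was -0.53 ± 0.09 (edgeR adjusted p = 0.0154), the single member called in that fit. On the opposite strand, exons of Plbd2 share 360 bases with exons of Sds and those of the antisense gene Gm15690 share 141 bases. The sources used here give no strand setting for the counts, so reads of these genes cannot be told apart there. Plbd2 was at 56.2 ± 8.38 and 61.3 ± 7.68 CPM on normal chow and high salt (log2 fold change 0.12 ± 0.11), and Gm15690 at 14.4 ± 2.78 and 10.9 ± 3.06 CPM (-0.40 ± 0.20).

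Sdsl had the fewest counts of the members, 114 to 255 counts per library. It was at 13.7, 7.29, 8.07 and 6.41 CPM on normal chow and at 7.05, 14.0, 8.56 and 6.28 CPM on high salt. A single library of each diet, normal chow 1 and high salt 2, was clearly above the rest, and the other 6 lay between 6.28 and 8.56 CPM. For Sdsl the log2 fold change was 0.017 ± 0.31 (95% interval -0.69 to 0.73), and its sign changed when single libraries were left out, from -0.29 without high salt 2 to 0.31 without normal chow 1. A difference in Sdsl of the size seen in Sds was therefore not detectable here. The Sds to Sdsl ratio was 17.4 ± 3.05 on normal chow and 12.2 ± 3.07 on high salt, with overlap.

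The glycine cleavage system has a P protein that decarboxylates glycine (Gldc), an H protein whose lipoyl arm carries the aminomethyl group (Gcsh) and a T protein that passes the carbon to folate and frees ammonia (Amt). Gldc lies on chromosome 19 from 30098449 to 30175418, Gcsh on chromosome 8 from 116981810 to 116993537 and Amt on chromosome 9 from 108296853 to 108302302. The 3 subunits had small differences that did not share a sign. Gldc was at 134, 96.4, 117 and 94.4 CPM on normal chow and at 107, 101, 96.1 and 84.1 CPM on high salt. Its log2 fold change was -0.19 ± 0.12 (95% interval -0.44 to 0.063, edgeR adjusted p = 0.604), and normal chow 1 was again the highest library.

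Amt was the member with the largest value above 0. It was at 43.9, 45.3, 59.2 and 47.5 CPM on normal chow and at 57.0, 49.3, 51.5 and 57.8 CPM on high salt. The high-salt libraries were above 3 of the normal-chow libraries and below normal chow 3, and the log2 fold change was 0.14 ± 0.10 (95% interval -0.08 to 0.35, edgeR adjusted p = 0.673). Gcsh had the smallest spread relative to its mean, at 96.9 to 109 CPM on normal chow and 93.2 to 102 CPM on high salt. The difference was -0.066 ± 0.074 on the log2 scale (95% interval -0.23 to 0.09), so that a change as large as that of Hal lies outside its interval.

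Shmt1, the cytosolic serine hydroxymethyltransferase, moves a carbon between serine and folate and so joins the serine and glycine routes. It lies on chromosome 11 from 60788104 to 60811718 on the reverse strand. On normal chow it was at 200.2, 232, 214 and 235 CPM, and on high salt at 167, 174, 198 and 203 CPM. The diets overlapped in high salt 4 and normal chow 1 alone. Unlike Hal and Sds, it was lower in normal chow 1 than in the other normal-chow libraries. Shmt1 had a log2 fold change of -0.25 ± 0.09 (95% interval -0.45 to -0.05), or 0.841 times the normal-chow level, with an edgeR adjusted p = 0.329 and a DESeq2 adjusted p = 0.174. Exons of Smcr8 on the opposite strand share 184 bases with exons of Shmt1, and Smcr8 was at 29.3 ± 1.09 and 30.0 ± 2.05 CPM.

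**Figure D3:**
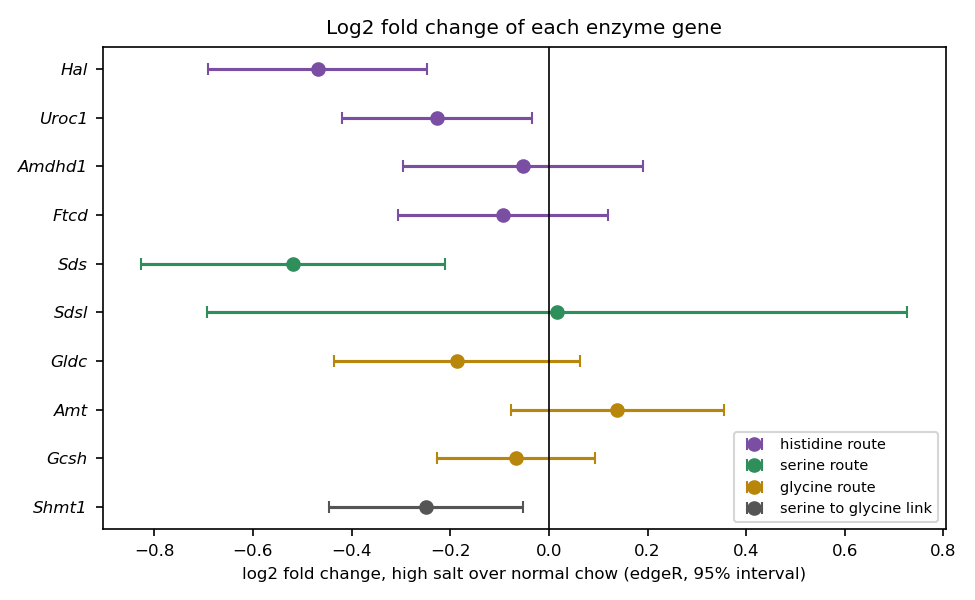
Log2 fold change of each member, high salt over normal chow, from edgeR with its 95% interval, coloured by route. The intervals of Hal, Uroc1, Sds and Shmt1 lie below 0 and those of the other 6 members include 0.

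Summed over the route, the 4 histidine genes were at 1559 ± 110.5 CPM on normal chow and 1325 ± 124 CPM on high salt. Sds and Sdsl together were at 157 ± 28.5 and 112 ± 22.1 CPM, and the 3 glycine cleavage genes at 262 ± 26.4 and 249 ± 12.0 CPM. All 10 members together took 2385, 2058, 2161 and 2189 CPM on normal chow and 1721, 2062, 1848 and 1852 CPM on high salt. High salt 2 reached the normal-chow range in that sum, and the other 3 high-salt libraries did not. These sums are descriptions without a test.

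Levels of different genes were compared per kilobase of exon. On normal chow, Uroc1 (136 ± 11.4 CPM per kilobase) and Ftcd (123 ± 7.59) were the most abundant, and their ranges of mean ± SD overlapped. Sds (87.2 ± 14.9), Hal (87.2 ± 7.74) and Amdhd1 (87.1 ± 13.8) followed, with means closer to each other than their SD. Gcsh (65.0 ± 3.86) and Shmt1 (56.8 ± 4.23) came next, each beyond the SD of its neighbour in this order, and Amt (20.1 ± 2.86) and Gldc (18.1 ± 3.06), which did not differ beyond their SD, were lower. Sdsl was at 5.93 ± 2.21 CPM per kilobase. On high salt Hal (63.0 ± 7.65) and Sds (60.8 ± 11.3) were below Amdhd1 (84.0 ± 7.91) and beside Gcsh (62.1 ± 2.39). Part of this order depended on the length used. With the longest transcript in place of all exons, Sds (115 ± 19.6 CPM per kilobase) was above Hal (90.9 ± 8.08) on normal chow. There Gldc (29.3 ± 4.95) was above Amt (23.5 ± 3.35), and Shmt1 (77.1 ± 5.75) was above Gcsh (71.1 ± 4.22). The ranges of mean ± SD overlapped in each of these pairs. By that length Sds on high salt (80.0 ± 14.9) was beside Amdhd1 (84.0 ± 7.91), and its mean was above those of Hal (65.7 ± 7.98) and Gcsh (67.9 ± 2.61).

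Libraries of the same diet differed in a way that many members shared. Normal chow 1 was 0.35 above the mean over all libraries in Hal on the log2 scale, 0.60 in Sds, 0.68 in Sdsl and 0.38 in Gldc, but -0.22 in Amt. High salt 1 was the lowest of its diet in Hal, Uroc1, Amdhd1 and Shmt1, at -0.50, -0.26, -0.14 and -0.27. High salt 2 was the highest of its diet in all 4 histidine genes and in Sds, Sdsl and Gcsh. Normal chow 1 also had the lowest sum of pericentral hepatocyte genes (8584 CPM, against 10548 to 14044 CPM in the others), whose part in these values was not tested.

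**Figure D4:**
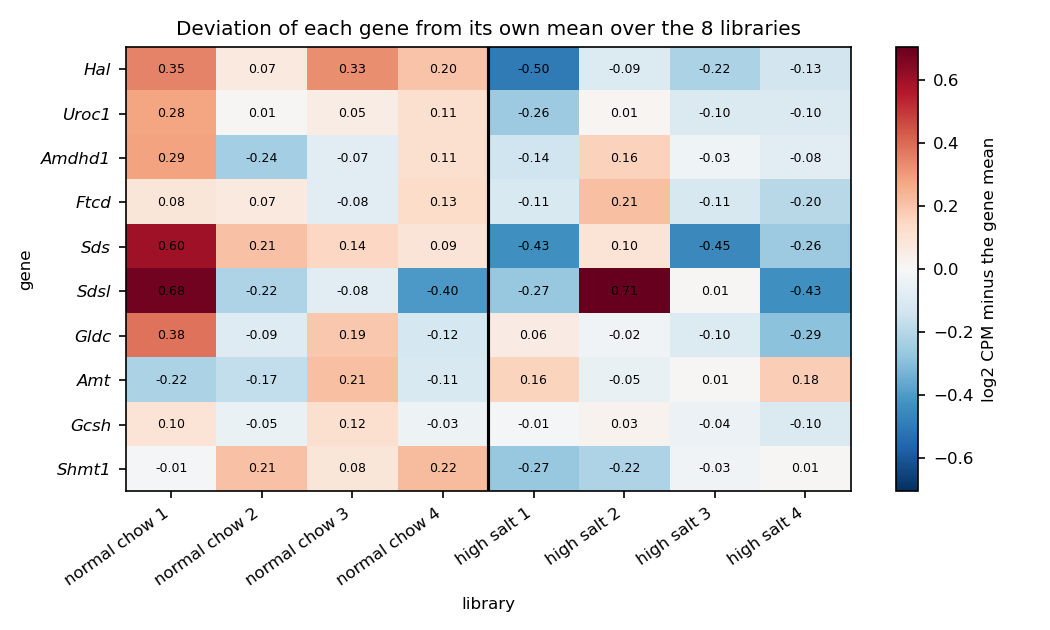
Log2 CPM of each member in each library minus the member's mean over the 8 libraries, with the diets divided by a line. Hal is above 0 in all normal-chow and below 0 in all high-salt libraries, and Sdsl is high in normal chow 1 (0.68) and high salt 2 (0.71).

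Beyond the members, 98 genes around these routes were read in 9 lists, of which 91 were tested. Across them 1 fell (Foxo1) and 0 rose by edgeR, a share to be read against 0.300% of all genes, and DESeq2 called 12 lower and 0 higher, against 1.83% of all genes in either direction. At an unadjusted p below 0.05, 26 were lower and 4 higher, against 10.9% of all genes in either direction and 5.60% lower. The CPM of the diets did not overlap in 18, against 6.36% of all genes. The counts of each list are to be read against the same shares. The median log2 fold change was -0.11, against 0.006 over all genes. The genes were chosen with earlier results of these data known, so the counts are descriptions.

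Among regulators of liver amino acid enzymes, 1 of 15 fell and 0 rose, and the list median was 0.03. Foxo1, a transcription factor held back by insulin, was at 66.4, 70.1, 54.7 and 77.5 CPM on normal chow and 46.6, 45.6, 45.1 and 49.8 CPM on high salt. It fell by 0.52 ± 0.10 on the log2 scale (edgeR adjusted p = 0.0432), but was called in 1 of 8 fits that left out a library, the fit without normal chow 3 (adjusted p = 0.0250), and its adjusted p reached 0.142 without high salt 3. Ppargc1a, a coactivator of the fasting response, had -0.69 ± 0.16 (26.2 ± 5.31 against 16.2 ± 2.92 CPM, edgeR adjusted p = 0.136 and DESeq2 adjusted p = 0.00655).

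Transport and folate genes held further values of the size of Hal. Of 10 tested transporters of serine, glycine and related amino acids, 0 were called by edgeR, 2 lower by DESeq2, and 4 lower and 0 higher at an unadjusted p below 0.05, with a median of -0.14. Sfxn1, which carries serine into mitochondria, was at 120.2, 122, 112 and 93.0 CPM on normal chow and 67.6, 86.6, 81.3 and 80.2 CPM on high salt. The diets did not overlap, and the log2 fold change was -0.51 ± 0.10 (edgeR adjusted p = 0.0697, DESeq2 adjusted p = 0.00124). It was called in 1 of 8 fits that left out a library (-0.59 without normal chow 4, edgeR adjusted p = 0.0389), and its adjusted p reached 0.180 without normal chow 2. Its relative Sfxn2 had -0.32 ± 0.08 (edgeR adjusted p = 0.118, DESeq2 adjusted p = 0.0110).

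Of 17 folate one-carbon genes edgeR called 0, DESeq2 1 lower, and 2 were lower and 0 higher at an unadjusted p below 0.05, with a median of 0.06. Aldh1l1, which oxidises formyl-folate in the cytosol, was at 1317, 1419, 1367 and 1292 CPM on normal chow and 727, 779, 1037 and 1135 CPM on high salt. All high-salt libraries were below all normal-chow libraries (log2 fold change -0.55 ± 0.13, edgeR adjusted p = 0.119, DESeq2 adjusted p = 0.00425). Of 8 fits that left out a library, 1 called Aldh1l1 (-0.67 without high salt 4, edgeR adjusted p = 0.0401), and its adjusted p reached 0.267 without normal chow 3. Slc25a32, the mitochondrial folate carrier, had -0.33 ± 0.09 (edgeR adjusted p = 0.176).

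Other enzymes that make or use serine and glycine had 0 of 17 called by edgeR and 1 lower by DESeq2, with 4 lower and 1 higher at an unadjusted p below 0.05 and a median of -0.14. Dmgdh, which demethylates dimethylglycine in mitochondria, had -0.34 ± 0.10 (508 ± 22.8 against 402 ± 51.3 CPM, edgeR adjusted p = 0.192, DESeq2 adjusted p = 0.0366). Grhpr, which reduces glyoxylate and hydroxypyruvate, had 0.36 ± 0.12 (edgeR adjusted p = 0.304). Serine synthesis genes were low: Phgdh (0.405 ± 0.183 CPM on normal chow, 0.380 ± 0.310 CPM on high salt) and Psat1 (0.305 ± 0.102 CPM against 0.785 ± 0.415 CPM) had too few counts to be tested, and Psph, the last enzyme, had 0.07 ± 0.19. Among genes listed as partners of the glycine cleavage system, 0 of 4 were below an unadjusted p of 0.05, with a median of -0.08. Of these, Lias (0.14 ± 0.11) and Lipt1 (-0.16 ± 0.17), both of protein lipoylation, had the smallest p.

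Genes listed as neighbours of the histidine breakdown route had 0 of 8 called by edgeR or DESeq2, and a median of -0.19. Of these, 4 were lower and 1 higher at an unadjusted p below 0.05. Aspa, an aspartoacylase, had -0.33 ± 0.10 (edgeR adjusted p = 0.226), and Slc15a4, a lysosomal histidine and peptide transporter, had -0.36 ± 0.11 (edgeR adjusted p = 0.235). Periportal hepatocyte genes outside the members had 0 of 10 called by edgeR, 5 lower by DESeq2, and 6 lower and 0 higher at an unadjusted p below 0.05, with a median of -0.40, where 1.83% of all genes were called by DESeq2 and 5.60% were lower at that unadjusted p. Their summed CPM ran from 19160 to 20802 on normal chow and from 13478 to 16424 on high salt, without overlap. Its part in the members' values was not tested. Cps1, Ass1 and Pck1 had the highest CPM of the list. The diets did not overlap in 6 of the 10 genes (Cps1, Ass1, Asl, Arg1, Gls2 and Pck1), against 6.36% of all genes. They overlapped in Cyp2f2, Etnppl, Pigr and Hsd17b13, which had -0.0004 ± 0.16. In this list Asl, argininosuccinate lyase, had -0.55 ± 0.12 (edgeR adjusted p = 0.0914) and Cps1, the entry enzyme of the urea cycle, -0.58 ± 0.13 (edgeR adjusted p = 0.0945). Each was called in 1 of 8 fits that left out a library, the fit without high salt 4, with -0.67 and -0.72 (edgeR adjusted p = 0.0270 and 0.0225). The adjusted p reached 0.198 for Asl without normal chow 2 and 0.247 for Cps1 without normal chow 3. Pericentral hepatocyte genes had 0 of 9 called by edgeR or DESeq2, 3 lower and 0 higher at an unadjusted p below 0.05, and a median of -0.13. Slc1a2, a glutamate transporter, had -0.42 ± 0.13 (edgeR adjusted p = 0.223) and Gulo, the last enzyme of vitamin C synthesis in mice, -0.30 ± 0.13 (edgeR adjusted p = 0.432).

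**Figure D5:**
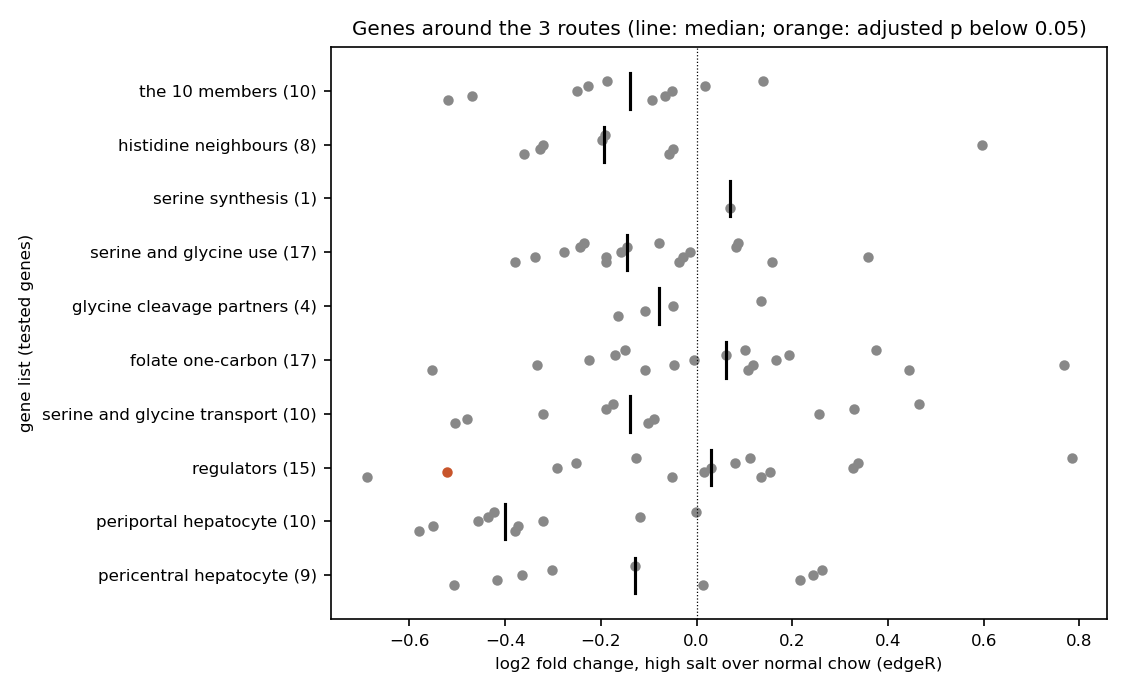
Log2 fold change, high salt over normal chow, of each tested gene in the members and in the 9 lists, with the median of each as a line and the called gene in orange. Foxo1, at -0.52, is the single called gene, and the periportal list has the lowest median (-0.40).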

How the data were processed

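RNA of mouse liver was sequenced in 8 libraries, 4 per diet, grouped by the diet label. The authors deposited whole-number read counts per gene without normalization, per the file headers, with their own linear fold, log2 fold, p-value and adjusted p-value, made with a tool that the sources do not name. HTSeq 0.6.0, HISAT2 2.1.0 and StringTie 1.3.2d are listed with build GRCm38 in the submitters' processing notes. For strand setting, annotation release and multi-mapped reads the sources used here give nothing. The labels do not say that libraries came from separate animals, so the p-values cover the spread among these libraries, which may be technical.

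The counts of 24317 genes were fitted with edgeR 4.0.16 in R 4.3.3 (TMM factors, filterByExpr, robust quasi-likelihood, diet as the only term), leaving 13341 genes, with a two-sided test and Benjamini-Hochberg adjustment. CPM were scaled by the TMM-adjusted library size. SE was the log2 fold change divided by the root of F. DESeq2 1.42.0, limma-voom (limma 3.58.1), other scalings and filters, a replicate block and fits without each library were alternatives. The fit was tested on simulated data. Chi-square per degree of freedom between libraries of a diet was 9.69 to 36.7, so no library was a copy of another. Exon lengths came from GENCODE M21, in which 24275 of the gene IDs were found, 22410 of them with the coordinates of the deposited table. The coordinates of Gldc differed, so its exon length may not match the gene model that was counted. The likeness of genes to Hal, Sds and Gldc was measured as the root mean square difference of log2 CPM centred on each gene's mean (prior count 2). An empty line of the table was skipped. The members and lists were chosen with earlier results of these data known. Named genes were all members, called list genes or up to 2 of smallest p per list, and the 3 genes most like each of Hal, Sds and Gldc at a mean of at least 10 CPM. The Plbd2, Smcr8, Gm15690, Cyp1a1, Tat and Hsd17b13 values and the names of the other periportal genes were added after the data were seen. So were the Cebpa and Atf4 values.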

Additional observations from a re-analysis of the deposited data

Results flagged for a closer look

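The ratio of the gap beside an extreme value to the whole range was taken in the 20 groups of 4 values that the members gave. In none of them did it pass Dixon's critical value for 4 samples at 95%. The ratios nearest to it were 0.803 for Ftcd on high salt, where high salt 2 was the highest, and 0.797 for Sds on normal chow, where normal chow 1 was the highest. Chance alone passes this limit in about 1 of 20 such groups. A ratio under it does not show that no library stood apart. Sdsl, with a single high library in each diet, had 0.773 on normal chow and 0.703 on high salt.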

How the results depend on the processing

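The direction of Hal, Uroc1, Ftcd, Sds, Gldc, Amt, Gcsh and Shmt1 held in all 17 alternatives. Amdhd1 (-0.052) turned to 0.011 with total-count scaling and ran from -0.14 to 0.042, the latter for normal chow 1, when 1 library was left out. Sdsl (0.017) ran from -0.29 to 0.31 and was below 0 in the fits that dropped high salt 2 (-0.29) or normal chow 2 (-0.072), 3 (-0.026) or 4 (-0.11). The count of called members, 0, was 2 with no filter on low counts (Hal, adjusted p = 0.00129, and Sds, adjusted p = 0.0360), 2 by DESeq2, 1 without normal chow 1 and high salt 2 together (chosen after the data were seen), and 0 in each fit without 1 library. The count of all called genes, 40, was 220 with no filter, 238 by DESeq2, 15 by limma-voom, 11 with the replicate block, 69 without those 2 libraries and 4 to 57 when 1 library was left out: 57 for normal chow 1, 4 for normal chow 2, 11 for normal chow 3, 5 for high salt 1 and 18 for high salt 2. The called genes of the 9 lists, 1 in the main analysis, were 11 with no filter, 12 by DESeq2, 0 with total-count scaling, by limma-voom or with the replicate block, and 0 to 3 when 1 library was left out, with 3 for high salt 4. The cause of these shifts was not tested.

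The replicate numbers are not stated to pair libraries. Same-numbered libraries had deviations from their diet means that correlated across genes at -0.15, -0.20, 0.09 and 0.005. From 4 libraries per diet, these values cannot show whether same-numbered libraries were paired. With the replicate block Hal had -0.47 (adjusted p = 0.244) and Sds -0.52 (adjusted p = 0.288). Sdsl, with 114 to 255 counts, had the largest SE of the members (0.31), which was 0.16 without normal chow 1 and high salt 2.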

Other observations

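Among 7427 genes whose mean reached 10 CPM, those closest to each entry enzyme over the 8 libraries were named by the root mean square difference of their log2 CPM, each gene centred on its own mean. Closest to Hal were Bcl2l1, an inhibitor of apoptosis (0.0702), Esr1, the estrogen receptor alpha (0.0836), and Ticam1, an adaptor of Toll-like receptors (0.0857), where Hal itself varied by 0.274 around its mean. Their log2 fold changes were -0.45 ± 0.12, -0.37 ± 0.10 and -0.40 ± 0.11 (edgeR adjusted p = 0.159, 0.148 and 0.190), so 0 of the 3 were called. The likeness spans both diets, so fold changes near that of Hal follow from the choice of genes.

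Closest to Sds was Gls2, the liver glutaminase (0.124, against 0.335 for Sds around its own mean), at 547 ± 104 CPM on normal chow and 408 ± 45.4 CPM on high salt (edgeR adjusted p = 0.215). Gls2, like Sds, releases ammonia from an amino acid, and it was also a member of the periportal list. The next were Ier2, an immediate early gene (0.127), and Ccl9, a chemokine (0.131). Closest to Gldc were Tbc1d1 (0.0633), Fam162a (0.0643) and Pter (0.0644), against 0.194 for Gldc around its mean. These lists describe 8 libraries, include the diet difference in the choice of genes and carry no test.

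Across all tested genes, normal chow 1 and high salt 2 deviated from their diet means in a like way, with a correlation across genes of 0.343. That was the highest of the 16 pairs between diets, the next being 0.132. Genes are not independent replicates, and the value is a description.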
